A study of Mus musculus with 3 samples.

Results

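The cell line that carries mutations in *Dmpk*, *Six5*, *Mbnl1* and *Dmwd* (DSMD) was compared with the line it was made from, which carries the first 3 of them (DSM). Both are androgenetic haploid embryonic stem cell lines of strain C57BL/6, which hold a paternal genome only, and both descend from the O48 line (WT here), whose *H19* and IG differentially methylated regions had been deleted. All were grown in 2i/Lif medium, and WT was taken at passage 40, DSM at passage 60 and DSMD at passage 70. The edits were made by CRISPR-Cas9, and each edited line grew from 1 picked cell, so that DSM and DSMD are single clones. Genomic DNA was sequenced from 1 library a line, and every test below compares the reads of 2 libraries and has no replicate check. The compared positions were those of the exonic variant table with 1 reference and 1 alternate base and a read depth (DP) of 10 or more in both libraries. They were 10861 of 11544 single-base positions listed for the series. The total DP over them was 827019 in DSM and 811800 in DSMD, and the median depth at the 4030 sites with an alternate share of 95% or more in every line was 31 reads in WT, 31 in DSM and 30 in DSMD.

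The variant table holds single-base substitutions, so the small insertions and deletions that Cas9 can leave at a cut were not analysed here. For *Mbnl1* the paper describes guides that remove a whole exon, which single-base substitutions do not show either. The 4 mutations could therefore not be checked. *Six5*, *Mbnl1* and *Dmwd* held no compared site. *Dmpk*, the kinase gene whose human counterpart carries the repeat expanded in myotonic dystrophy type 1, held 6 sites in its 3′ untranslated region. At the first of them, A19093209C on chromosome 7, 14 of 26 reads in DSM and 10 of 19 in DSMD had the alternate base, and none of the 6 was called by Fisher's exact test after adjustment.

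In a haploid genome each position holds 1 base. A site with a mixture of the reference and the alternate base therefore draws reads from more than 1 copy of a sequence, from a mixture of cells or from misplaced or misread bases, and a read count cannot tell these apart. Repeated gene families are where such mixtures gather. One of them is the Dux array of mouse chromosome 10, a tandem array of intronless genes for a transcription factor with a pair of homeodomains. Dux is the mouse counterpart of human DUX4 and is known for switching on genes of the early cleavage embryo in a small fraction of embryonic stem cells.

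The reference genome (GRCm38, the mm10 build) places 2 such genes close together on the minus strand of chromosome 10, LOC100504180 (58222403 to 58225832, annotated as a DUX4-like protein) and *Duxf3* (58229505 to 58233089). Their coding sequences are 2025 bases each and were identical at 1988 positions, or 98.2%, when set side by side at an offset of 7679 bases. The windows below are 30 bases of the RefSeq assembly on the plus strand, inside the coding exon of each gene, and are shown because the same pair of substitutions was listed in both. Capitals mark the 2 substituted bases.

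LOC100504180 reference, chr10:58224869-58224898: aggtatctcttctCcttAaaagttgatagc
LOC100504180 alternate, chr10:58224869-58224898: aggtatctcttctTcttGaaagttgatagc
*Duxf3* reference, chr10:58232548-58232577: aggtatctcttctCcttAaaagttgatagc
*Duxf3* alternate, chr10:58232548-58232577: aggtatctcttctTcttGaaagttgatagc

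The reference windows of the 2 genes were the same in all 30 bases. A read from either copy, or from a copy that the assembly does not hold, could be placed at either gene where it covers only shared bases. Read length and the placement of reads were not examined.

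Across all compared sites the alternate share, which is the percentage of the reference and alternate reads that carry the alternate base, had a median change of 0 from DSM to DSMD, and 6605 of 10861 sites changed by less than 5 percentage points. The share was 95% or more in both libraries at 4070 sites and mixed (5% up to 95%) in both at 4339. Two-sided Fisher's exact tests with Benjamini-Hochberg adjustment called 474 sites different, 4.36% of those tested, with the share higher in DSMD at 277 and lower at 197. Most of these calls involve a listed reference genotype. Of the 474 sites, 381 had a reference genotype in at least 1 library, and 371 of those listed 0 alternate reads there, 247 of them with a genotype quality of 0. Such entries list 0 alternate reads at 882 of 887 sites in DSM and 773 of 776 in DSMD, and whether alternate reads were counted at them could not be told from the table. Among the 8161 sites with a variant genotype in both libraries, where both bases were counted, 75 were called, or 0.919%, and the share was higher in DSMD at 67 of them and lower at 8.

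**Figure D1:**
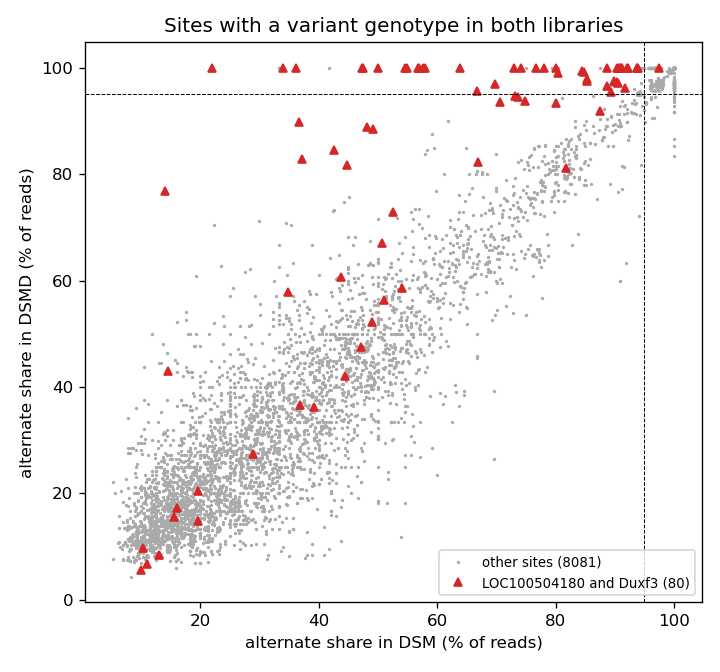
Alternate share (% of reads) in DSM on the x axis and in DSMD on the y axis for the 8161 sites with a variant genotype in both libraries, 1 point a site, with dashed lines at 95%. The 80 sites of LOC100504180 and *Duxf3* are red triangles, and a row of them lies at the top edge, above the diagonal.

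These 75 sites lay in 13 stretches separated by more than 20000 bases. One stretch of 9711 bases, from 58223007 to 58232717 on chromosome 10, held 52 of them, all in LOC100504180 and *Duxf3* and all with a higher alternate share in DSMD. The other 23 were spread over 12 stretches. Moves from a mixed share to 95% or more overlap with these calls and are not a separate result. There were 64 such sites, of which 45 were called, 41 in the Dux genes and 4 elsewhere. All 45 are among the 75 calls above. Without the Dux genes, 21 sites moved in this direction. Moves the other way, from 95% or more to mixed, were found at 23 sites with or without the Dux genes, none of them called. The smallest p of these 23 was 0.0136 unadjusted and 0.162 adjusted by the exact test. Between WT and DSM, a comparison that shares the DSM library and in which the passages also differ, 22 sites went from mixed to 95% or more and 12 the other way, over 10711 sites.

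Reads with the reference base were fewer in the Dux genes of DSMD. At the 41 moved sites the reference base was read 12 to 43 times in WT (median 30) and 15 to 42 times in DSM (median 25), but 0 to 12 times in DSMD (median 0). Low reference counts in DSMD follow from how these sites were chosen, by a share of 95% or more there, and are given as a description. The count was 0 at 30 of the 41 sites. Reads with the alternate base had medians over the same sites of 102 in WT, 100 in DSM and 119 in DSMD. The alternate share at these sites ran from 22% to 94.0% in DSM (median 80.3%) and from 95.7% to 100% in DSMD, and from 20.6% to 92.3% in WT, where all 41 sites were mixed as well. Adjusted p-values of the exact test, which also chose the sites, lay between 5.97e-08 and 0.0138. Neighbouring sites share reads, so the 41 sites are not 41 separate events.

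**Figure D2:**
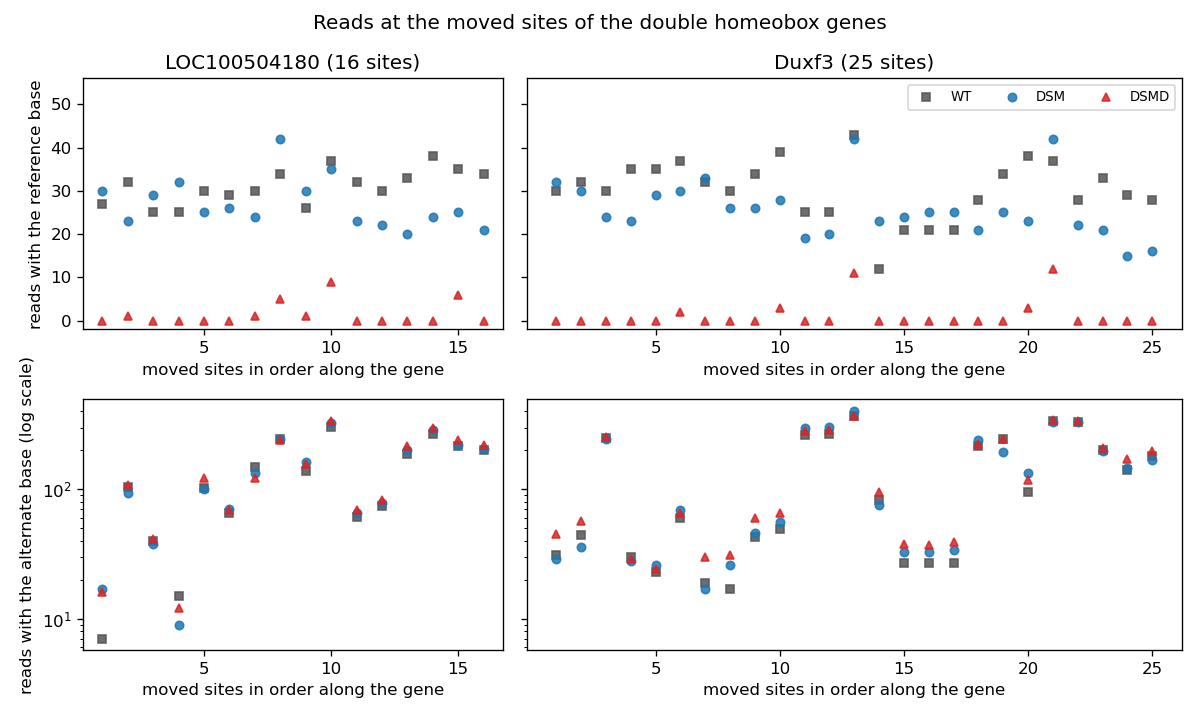
Reads with the reference base (top, linear axis) and with the alternate base (bottom, log axis) at the 16 moved sites of LOC100504180 and the 25 of *Duxf3*, in order along each gene, in WT (squares), DSM (circles) and DSMD (triangles). Reference reads in DSMD lie between 0 and 12, below the other lines at every site, which were chosen for a share of 95% or more in DSMD, while the alternate reads of the 3 lines overlap.

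The pair of substitutions in the windows above followed this pattern. In LOC100504180, C58224882T, listed as E39K, had 32 reference and 61 alternate reads in WT, 23 and 66 in DSM and 0 and 69 in DSMD. Its silent neighbour A58224886G (F37) had 30 and 74, 22 and 78, and 0 and 83. In *Duxf3* the matching C58232561T (listed as E105K, on an older and longer protein model) had 37 and 336 reads in WT, 42 and 332 in DSM and 12 and 342 in DSMD. There A58232565G had 28 and 334, 22 and 331, and 0 and 339. The reference base fell in both genes, to 0 at 3 of these 4 positions. The 0 of 69 reads at C58224882T allows a share of up to 4.35%, and the 0 of 339 at A58232565G up to 0.885%, by counting error only.

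Among the moved sites of the array, the 2 smallest adjusted p-values belonged to *Duxf3* sites at which the 2 bases had been nearly even. Some array sites with a reference genotype in DSM or DSMD had smaller ones. At G58230064A (S937F) WT had 32 reference and 44 alternate reads, DSM 30 and 36, and DSMD 0 and 57. T58230059A was listed as a stop gained (K939*) and had 30 and 31 reads in WT, 32 and 29 in DSM, and 0 and 45 in DSMD. In RefSeq both positions lie in the 3′ untranslated part of the single *Duxf3* exon, downstream of its coding sequence, so the stop applies to the older model only. Inside the coding sequence, T58231097C (N593D) had 32 and 19 reads in WT, 33 and 17 in DSM, and 0 and 30 in DSMD. The alternate share at this site was 34.0% in DSM (95% Clopper-Pearson interval 21.2% to 48.8%) and 100% in DSMD (88.4% to 100%), with an adjusted p of 1.31e-07 by the exact test.

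*Duxf3* N593 reference, chr10:58231082-58231111: gagggcctgtgctgtTtgcttgagtgcggg
*Duxf3* N593 alternate, chr10:58231082-58231111: gagggcctgtgctgtCtgcttgagtgcggg

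The capital marks T58231097C on the plus strand. Of the moved sites, 39 could be set against the other gene (at least 90 of 101 surrounding bases identical). At 20 of them the reference genome has the alternate base at the matching position of the other gene, as it does at T58231097C, and at 19 it has the same reference base in both. Of the 55 other alignable sites of the array, 5 had the alternate base in the other gene. The bases that were no longer read in DSMD thus included bases that tell the 2 reference copies apart, in both genes.

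The sites of the 2 genes with a variant genotype in all 3 lines include the 41 moved sites. Both genes were also picked by their calls, so the counts that follow are a description. Of the 98 compared sites in the 2 genes, 77 had a variant genotype in all 3 lines, and the reference base was read less often in DSMD than in DSM at 72 of these. The difference had a median of 24 reads (quartiles 19 and 29), against a depth of 30 to 31 reads at sites fixed in every line, while alternate reads differed by a median of 4 (quartiles -4 and 13). Without the moved sites, the reference base was read less often in DSMD at 31 of 36 sites, with a median difference of 21 reads (quartiles 14 and 32). Leaving the moved sites out also selects by the share in DSMD. At the 24 unmoved sites with fewer than 100 reference reads in DSM, the median fell from 36 reads to 8, with a median difference of 23.5. At the 12 sites with 100 or more, the medians were 323.5 and 313, the median difference was 10 (quartiles 2 and 32.5), and the lowest adjusted p was 0.453. For instance, G58224003A (R332C) had 344 reference and 330 alternate reads in DSM and 310 and 340 in DSMD, and T58231387G (Q496P) had 440 and 84 and 474 and 99. The quartiles at these 12 sites span the median difference of 24 reads given above, and even a loss of 40 reads was not called there. Whether the fall was absent at them could not be told. From WT to DSM, reference reads of the 77 sites differed by a median of 5 reads, and they were lower in DSM at 50.

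Summed over mixed sites with a variant genotype in both libraries, reference reads of *Duxf3* went from 2342 in DSM to 1502 in DSMD, a ratio of 0.641, and alternate reads from 5413 to 5607, a ratio of 1.04. In LOC100504180 reference reads went from 4488 to 3701 (ratio 0.825) and alternate reads from 4773 to 4805 (1.01). Over the 94 genes with at least 10 such sites the ratio of reference reads had a median of 0.981 and quartiles of 0.915 and 1.08. The reference ratio of *Duxf3* was the second lowest of the 94, after *Them6* (0.551), whose alternate reads were lower as well (0.756). The sums of the 2 Dux genes include their 41 moved sites, at which reference reads went from 1075 to 54. Those sites were chosen by their share in DSMD, so the rank follows in part from that choice.

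The extent of the fall could be read at listed sites only. The next genes to the right of *Duxf3* in the array are *Gm4981* and *Gm9919*. At the *Gm9919* sites reference reads numbered 43 in DSM and 52 in DSMD at G58239643A, 40 and 27 at A58239764G and 38 and 27 at A58239766G, higher at 1 site and lower at 2, and none was called. The *Gm4981* site G58235103C was called (adjusted p = 0.000223 by the exact test). It had 55 reference reads in DSM, and 29 reference and 14 alternate reads in DSMD. Its entry in DSM listed 0 alternate reads and a genotype quality of 0. The first listed site beyond the array, in *Edar* at 58610496, was fixed in all 3 lines. At the threshold of the move, the called sites closest below 95% in DSMD were in the same 2 genes, such as C58229991G, with 34 reference and 93 alternate reads in DSM and 5 and 90 in DSMD. The sites closest above it moved by little, such as C3136635T in *Sfi1*, with 60 and 893 reads in DSM and 43 and 875 in DSMD.

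Outside the array, 4 called sites went from a mixed share to 100%, and each had no alternate read in WT. *Top2b*, a type II topoisomerase, which relieves torsion in DNA, had A16406734T on chromosome 14, listed as L625F in coding exon 16 of 36. WT had 29 reference reads and 0 alternate reads, DSM 24 and 12, and DSMD 0 and 33. The share was thus 0% in WT (up to 10.3% allowed), 33.3% in DSM (18.6% to 51.0%) and 100% in DSMD (89.4% to 100%), with an adjusted p of 1.79e-07 by the exact test.

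*Top2b* L625 reference, chr14:16406719-16406748: aaattatacaggattAggtaccagtaccgc
*Top2b* L625 alternate, chr14:16406719-16406748: aaattatacaggattTggtaccagtaccgc

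The window is on the plus strand, which is the strand of *Top2b*, and the capital marks the substituted base. A silent C34747274T at L244 of *Fam50b*, a retrogene on chromosome 13, had 22 and 0 reads in WT, 12 and 6 in DSM, and 0 and 28 in DSMD. In an intron of *Syne1*, which codes for the nuclear envelope protein nesprin-1, C5278083A had 24 and 0, 21 and 15, and 0 and 28. In the 3′ untranslated region of *Gpr171*, a G protein-coupled receptor gene, on chromosome 3, A59097307T had 38 and 0, 10 and 10, and 0 and 42. The share in DSM was between 33.3% and 50.0% at these 4 sites, and adjusted p-values of the exact test were 5.63e-05, 3.36e-05 and 0.000167 for *Fam50b*, *Syne1* and *Gpr171*. The sites lie on 4 chromosomes. They were chosen for a called move from a mixed share in DSM to a higher one in DSMD. That DSM lay below DSMD at all 4 therefore follows from the choice. Only the place of WT was free, and WT had no alternate read at any of them.

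A further 4 sites went from below 5% in DSM to 100% in DSMD, all 4 called. *Lman2*, a cargo receptor of the secretory pathway, had G55345403A in its 3′ untranslated region on chromosome 13, with 36 reference reads in WT, 29 in DSM and 0 in DSMD against 0, 0 and 26 alternate reads. *Hspa9*, the mitochondrial chaperone mortalin, had C34939410G (S554T, coding exon 14 of 17) on chromosome 18, with 22, 28 and 0 reference reads and 0, 0 and 22 alternate reads. For both, the reference genotype of DSM had a quality of 81 and 72, and the 0 alternate reads there allow a share of up to 10.3% and 10.7%. The other two had a genotype quality of 0 in DSM. They were C129707775T in a non-coding exon of *Khdrbs1*, the gene of the RNA-binding protein Sam68, with 36 reference reads in DSM and 31 alternate reads in DSMD, and A58223637C (L454V) in LOC100504180, with 56 and 17. In *Duxf3* the reference genome carries the alternate base of the last site.

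The reverse, from 100% in DSM to 0% in DSMD, was listed once. G116935716A on chromosome 14, in an intron of *Gpc6* by RefSeq and listed as R278K of another model, had 15 reference and 0 alternate reads in WT, 0 and 10 in DSM, and 11 and 0 in DSMD. The alternate base, listed in DSM but in neither the line before it nor the line after it, rests on 10 reads, the minimum depth (interval 69.2% to 100%).

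**Figure D3:**
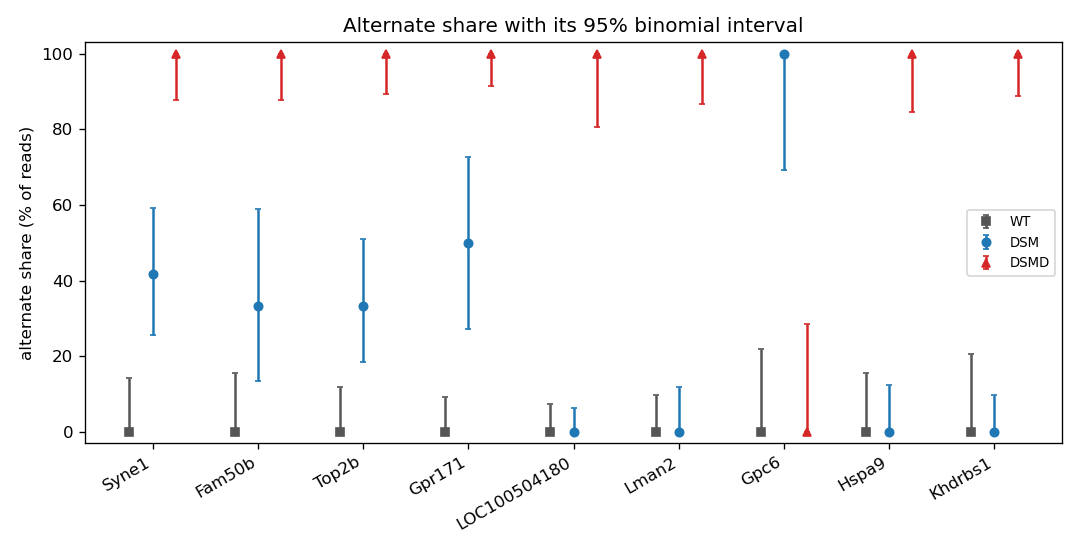
Alternate share (% of reads) with its 95% Clopper-Pearson interval at the 4 called sites outside the array that went from mixed to 100%, left, and the 5 that changed between below 5% and 100%, right, in WT (squares), DSM (circles) and DSMD (triangles). *Syne1*, *Fam50b*, *Top2b* and *Gpr171* are intermediate in DSM, and *Gpc6* is high in DSM alone.

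Outside the array, the 19 remaining calls with a variant genotype in both libraries were mixed in both. In the 3′ untranslated region of *Mex3c*, a gene for an RNA-binding ubiquitin ligase, 6 sites in 53 bases had 77 to 84 alternate reads in WT, 17 to 32 in DSM and 89 to 104 in DSMD. Reference reads there were 38 to 44, 38 to 40 and 33 to 38, so that the alternate reads of DSM were low and those of WT and DSMD were close. In the vomeronasal receptor gene *Vmn2r114*, 3 sites had 28 to 44 alternate reads in WT, 9 to 15 in DSM and 30 to 49 in DSMD. DSM stood apart in the other direction in *Vmn2r125*, with 9 to 16, 23 to 36 and 4 to 9 alternate reads at 3 sites. The 2 sites of the pseudogene *Pisd-ps2* differed in pattern. C3083999A had 15 alternate reads in WT, 80 in DSM and 13 in DSMD, with 33, 35 and 36 reference reads, whereas C3084148T had 176 alternate reads in WT, 217 in DSM and 38 in DSMD, while its reference reads were 24, 19 and 22. In *Zfp982*, a zinc finger gene, G147512369A (C61Y) had 93 reference and 36 alternate reads in WT, 80 and 85 in DSM, and 121 and 27 in DSMD. The share of WT lay closer to DSMD than to DSM at 16 of the 19 called sites outside the array that were mixed in both lines. All 19 were picked for a difference between DSM and DSMD. Most lie in the short stretches above, where neighbours share reads, so they are not 19 separate events.

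**Figure D4:**
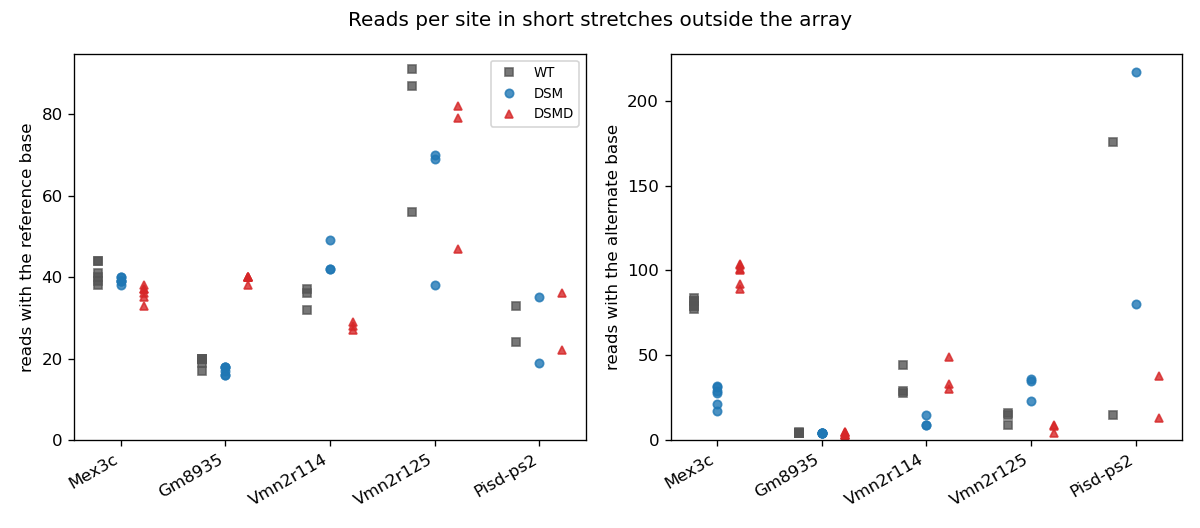
Reads with the reference base (left) and the alternate base (right) at each site of 5 short stretches outside the array, 1 point a site, in WT (squares), DSM (circles) and DSMD (triangles). In *Mex3c* the alternate reads of DSM (17 to 32) lie below those of WT and DSMD, and in *Gm8935* the reference reads of DSMD (38 to 40) lie above the other lines.

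The 45S pre-ribosomal RNA gene *Rn45s*, a gene of many copies, had 2 called sites with shares that moved by little at great depth. C39844984T had 345 of 1911 reads with the alternate base in DSM and 544 of 2169 in DSMD, and G39846005A had 516 of 3458 and 330 of 2842. The last 2 calls were T15714088G (L192R) on chromosome 5, where *Speer4c* and *Speer4cos* overlap, with 201 of 302 and 209 of 261 alternate reads, and G20557916A (P2L) on chromosome 8, in a model with no RefSeq gene, with 45 of 87 and 18 of 75.

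Depth was close to even between the lines. Scaled by total DP, the summed DP of DSMD over DSM ran from a log2 ratio of -0.14 on chromosome 16 to 0.08 on chromosome 18 over chromosomes 1 to 19 and X, and the medians over the sites of a chromosome from -0.07 to 0.07. None of these ratios was near 1, the value for a second copy of every compared site. The sums do not sample chromosomes evenly. On chromosome 1 a single bin held 766 of 1010 sites and 131923 of the 143187 summed DP of DSM. On chromosome 17 a bin of 80 sites held 139979 of 172343. A gain of a whole chromosome was therefore not tested. Of 252 bins of 5 Mb with at least 5 sites, 11 (4.37%) lay 0.5 or more from 0, 6 up and 5 down, around an SD of 0.22 over bins. They held 5 to 13 sites, and none of the 86 bins with 20 or more sites was among them.

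**Figure D5:**
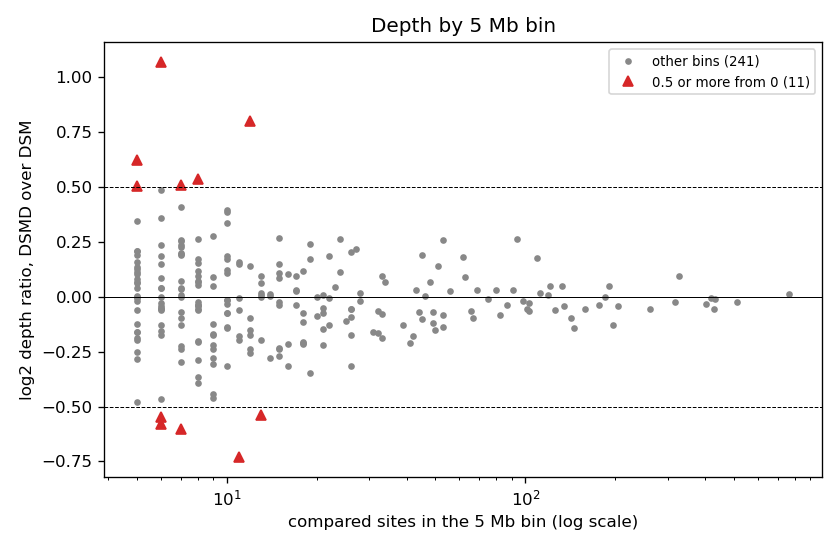
Log2 ratio of summed depth in DSMD over DSM, scaled by total DP, against the number of compared sites (log axis) for 252 bins of 5 Mb, with dashed lines at 0.5 and -0.5. The 11 bins past these lines, red triangles, hold 5 to 13 sites, and the spread narrows as bins hold more sites.

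The largest shift, a log2 ratio of 1.07 on chromosome 3, came from 6 sites in 35 bases of an intron of the pseudogene *Gm8935*, all variant in both libraries. Their reference reads were 17 to 20 in WT, 16 to 18 in DSM and 38 to 40 in DSMD, and their alternate reads stayed at 3 to 5 in every line. The next, 0.80 on chromosome 1 (the entry overlapping *Lypla1*), had 12 sites, all with a reference genotype in 1 library or both, and the ratio was 0.12 without the 9 sites of its leading entry. The lowest was -0.73 on chromosome 15 at 4930572J05Rik, which overlaps *Them6*, from 11 sites of which 10 lay in 39 bases (-0.69 at the remaining site), with summed DP of 175 in WT, 260 in DSM and 154 in DSMD. *Chl1* (a neural adhesion molecule), *Atxn1* (ataxin-1), *Carmil3* (listed as Lrrc16b) and *Nr1i2* (the xenobiotic receptor PXR) led the other low bins, with log2 ratios of -0.55, -0.60, -0.58 and -0.54. Without *Atxn1*, *Carmil3* or *Nr1i2* their bins stood at -0.09, 0.03 and -0.19, and the *Chl1* bin held no other site. *Sim2* (a neural transcription factor), *Cdh5* (VE-cadherin), an entry overlapping *n-TKctt9* and one overlapping *4930426L09Rik* led the other high bins, at 0.51, 0.53, 0.62 and 0.50. Without the leading entry the bins of *Sim2*, *Cdh5* and *4930426L09Rik* stood at 0.61, -0.21 and -0.11. The leading entries held 5 of 7, 5 of 8 and 3 of 5 sites of these bins, so the remaining values rest on very few sites. The *Gm8935* and *n-TKctt9* bins held no other site. Most sites of these other low and high bins also had a reference genotype in 1 library or both. In the low bins they were 6 of 6 for *Chl1*, 7 of 7 for *Atxn1*, 5 of 6 for *Carmil3* and 10 of 13 for *Nr1i2*. In the high bins they were 6 of 7 for *Sim2*, 6 of 8 for *Cdh5*, 5 of 5 for *n-TKctt9* and 4 of 5 for *4930426L09Rik*.

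By effect class the median change of the alternate share was 0 in every class with more than 23 sites. Among sites with a variant genotype in both libraries, 54 of 2983 nonsynonymous sites were called (1.81%), 9 of 2103 synonymous sites (0.428%), 7 of 2345 in 3′ untranslated regions (0.299%) and 2 of 443 in 5′ untranslated regions (0.451%). Of the 54 nonsynonymous calls, 43 lay in the 2 Dux genes, and so did 5 of the 9 synonymous ones. Only 1 of 102 stop-gained sites was called, the K939* of *Duxf3*, and none of 50 stop-lost sites. The 41 moved Dux sites were listed as 33 nonsynonymous, 4 synonymous, 1 stop gained, 1 start gained and 2 in 5′ untranslated sequence, on the models of the table.

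Of 61 genes listed for their role in myotonic dystrophy, double-strand break repair and p53, mismatch repair, naive pluripotency, imprinting and topoisomerase activity, 7 held a compared site, 30 sites in all, and 1 of these was called (3.33%, against 4.36% of all compared sites), the *Top2b* site above. No gene of the mismatch repair list (7 genes) or of the pluripotency list (12 genes) held one. The 5 sites of *Celf1*, an RNA-binding protein gene tied to the same disease, were fixed in every line. *Mdm2*, the ubiquitin ligase that restrains p53, had 1 site, A117689560G, with 7 of 27 alternate reads in DSM and 0 of 22 in DSMD (adjusted p = 0.153 by the exact test). In the imprinted genes *H19*, *Igf2* and *Dlk1*, 17 sites gave no call. Within 1 Mb of *Dmpk*, *Six5* and *Dmwd*, which are neighbours on chromosome 7, 34 sites were compared, 3 were called (8.82%, against 4.36% of all compared sites) and none moved from mixed to 95% or more. All 3 calls had a reference genotype in 1 library, and none of the calls with a variant genotype in both libraries (0.919% of those tested) lay there. The 5 Mb bin of these genes had a log2 depth ratio of -0.14 over 53 sites, and *Mbnl1* had its nearest compared site 513417 bases away.

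Mitochondrial DNA held 3 sites. G13836A in ND6 (P79S) had 1089 of 3025 alternate reads in WT, 988 of 3468 in DSM and 921 of 3408 in DSMD, and C9626T in ND3 had 282 of 1462 in DSM and 264 of 1658 in DSMD, neither of them called. In WT, C9626T had a reference genotype with 43 reads and 0 alternate reads. C645A in the ribosomal RNA gene *mt-Rnr1* was called (adjusted p = 1.22e-18 by the exact test). It had 420 of 3042 in DSMD and a reference genotype with 0 alternate reads in WT (416 reads) and DSM (352 reads). The listed depth of DSM at C645A sets the mitochondrial log2 depth ratio of 0.65.

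Most of the largest other called changes involve a reference genotype and are given as listed. The 10 genes chosen by the size of the change, leaving out the moves above, had changes of 58.3 to 80.0 percentage points, and in 9 of them 1 library listed 0 alternate reads. *Flg2*, a skin barrier gene of repeated domains, had C93214963T with 0 of 19 alternate reads in DSM and 8 of 10 in DSMD. Alternate reads were listed in DSM but not in DSMD in *Nfia* (9 of 13 and 0 of 18), *Tmf1* (12 of 18 and 0 of 19), *Mmp15* (17 of 26 and 0 of 28), *Amz2* (14 of 23 and 0 of 13), *Slit1* (12 of 20 and 0 of 12) and *Opcml* (6 of 10 and 0 of 17). They were listed in DSMD but not in DSM in *Elavl3* (0 of 13 and 8 of 13) and *Vipr2* (0 of 23 and 7 of 12). WT also listed alternate reads in *Slit1* (6 of 13), *Opcml* (7 of 13), *Tmf1* (3 of 10) and *Elavl3* (4 of 21). The exception was G58223478T (Q507K) in LOC100504180, where both bases were read in every line, with 33 reference and 8 alternate reads in WT, 37 and 6 in DSM, and 3 and 10 in DSMD.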

How the data were processed

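Whole-genome libraries of 3 mouse haploid embryonic stem cell lines were sequenced, 1 library a line. The submitters' processing notes name CASAVA 1.8.2, BWA 0.7.12, SAMtools, Picard, GATK and the mm10 build, with no further settings. The exonic variant table deposited by the authors gives, for each library, counts of all reads (DP), of reference reads and of alternate reads, the last stored in deposited cells of another kind because some hold several values. It also holds the genotype and a genotype quality score that the authors' caller assigned.

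Entries with 1 reference and 1 alternate base were reduced from 14685 lines to 11544 positions, each with its effect of highest impact. Positions with DP of 10 or more in DSM and DSMD were kept. Alternate and reference reads were compared by two-sided Fisher's exact tests adjusted by Benjamini-Hochberg over all of them (Python 3.11.15, SciPy 1.17.1), with a threshold of 0.05, and checked on simulated data. Reads without molecular identifiers are not independent, so p-values, 95% Clopper-Pearson intervals and the limits for a count of 0 (3 counts) cover counting error only. Mixed was a share from 0.05 to below 0.95. Depth was summed DP scaled by total DP, by chromosome and in 5 Mb bins of at least 5 sites. RefSeq (GRCm38.p6) gave gene names, features and sequences, and its base matched the listed reference base at all 4205 sites of the 7 chromosomes checked. Names in the table that differ from RefSeq are given with it. The text names the targeted genes, genes of called moves, the 10 genes with the largest other called changes, the leading gene of each shifted bin and members of the gene lists that hold a site. The comparison, its thresholds and the gene lists were chosen with earlier results of these data known. The 683 positions under the DP minimum and positions with several alternate bases were left out. Alternatives were other depth limits, thresholds, denominators, scalings and bins. Restricting to variant genotypes, to a genotype quality of 20 or more, or to sites outside the Dux genes was added after the data were seen.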

Additional observations from a re-analysis of the deposited data

How the results depend on the processing

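The count of sites with a different share was 474 and fell to 248 without sites over DP 100, to 42 without sites that had another listed site within 100 bp, to 133 with Bonferroni adjustment, to 75 at sites with a variant genotype in both libraries and to 163 at a genotype quality of 20 or more in both. Moves from mixed to 95% or more, 64 in the main comparison, numbered 33 without sites over DP 100, 12 without close neighbours, 101 with fixed set at 1 and 21 without the Dux genes, of which 4 were called. Moves the other way, 23 before, were 7 without close neighbours and 70 with fixed set at 1. Moves from below 5% to 95% or more went from 4 to 2 at a genotype quality of 20 or more. Shifted bins went from 11 of 252 to 6 of 163 at DP of 20 or more, to 0 of 69 without close neighbours, to 0 of 31 over sites fixed in both, to 3 of 150 with 10 or more sites a bin, to 29 of 252 at a fold of 0.3, to 3 of 132 at variant genotypes and to 3 of 155 at a genotype quality of 20 or more. The log2 depth ratio of chromosome 16, -0.14, was -0.20 at DP of 20 or more, -0.076 without close neighbours and -0.042 over fixed sites. The settings without close neighbours, with more sites a bin or over fixed sites also test fewer sites or bins, and the cause was otherwise not tested. The median share change was 0 under every setting run. Of 79 called sites named in the text or moved, 49 kept their call with Bonferroni adjustment and 30 did not. Under the other settings that test single sites, 446 values were recomputed where a site was kept, and direction and call held in all but 2, both for *Elavl3* A22017907C, which was not called without sites over DP 100 or at a genotype quality of 20 or more. No direction turned in any of the 525 values. No paired analysis was possible because each line has 1 library, and no replicate could be left out. At a median of 31 reads, small differences in share are not detectable at single sites.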
